A study of Mus musculus with 6 samples.

Results

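Transcripts of 10 glycolytic enzymes, Hk1, Hk2, Gpi1, Pfkl, Aldoa, Gapdh, Pgk1, Eno1, Pkm and Ldha, were examined among the 49315 genes counted in each library. The members were a list of named genes, and the Ensembl identifiers of all 10 were matched to symbols through GENCODE for GRCm38. RNA was sequenced in bulk from LT-HSCs, ST-HSCs and MPPs, the long-term and short-term hematopoietic stem cells and multipotent progenitors of mouse bone marrow, sorted from WT mice and from ING4-/- mice, which lack the chromatin-associated tumor suppressor ING4. The WT mice were C57BL/6 animals of 8–12 weeks; the age of the ING4-/- mice was not given in the sources used here, and no treatment was named for either group. Marrow of 8 to 10 mice was pooled and lineage depleted before the sort, and each population of each genotype gave 1 library, so that 3 WT and 3 ING4-/- libraries were compared and the populations stood in for replicates. Series of 3 values are given in the order LT-HSC, ST-HSC and MPP throughout.

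Glycolysis splits glucose into pyruvate in the cytosol and yields ATP without oxygen. Hexokinase and phosphofructokinase spend ATP in its upper part, and the later enzymes, from glyceraldehyde 3-phosphate dehydrogenase to pyruvate kinase, repay it; lactate dehydrogenase then turns pyruvate into lactate and regenerates NAD+. Quiescent hematopoietic stem cells are known to rely strongly on this pathway, and HIF-1α and MYC are known activators of many of its genes.

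The WT libraries held 7839326 to 9363442 counts and the ING4-/- libraries 35596876 to 39192588. Ing4 itself had 247, 162 and 247 counts in WT and 0, 24 and 76 in ING4-/-, a log2 fold change of -4.49 (SE 1.56; edgeR adjusted p = 0.0373) that lost its call with population as a block (edgeR adjusted p = 0.0783), in the 3 fits without a WT library and in that without ING4-/- ST-HSCs (edgeR adjusted p = 0.0660 to 0.0830). Which exons are missing from the ING4-/- allele was not given in the sources used here. The WT libraries also carried reads on 1702 olfactory and vomeronasal receptor genes, which belong to sensory neurons: 22.7, 22.9 and 18.3 counts per kb, against at most 0.0811 in ING4-/-. At that density such background would make up 57.1%, 47.2% and 30.3% of the Hk2 counts in the WT libraries, but 0.817% to 9.29% of the counts of the other 9 enzymes. For Ing4 it would make up 48.8%, 75.4% and 39.5% of the WT counts. Exons of Ing4 also shared 34.9% of their bases with the same-strand gene Gm44597. Kit, a defining marker of the sorted cells, was present in all 6 libraries with 3510 to 33916 counts, while Cd48, whose protein the gates excluded, had 50, 154 and 376 counts in WT and 0, 1077 and 4300 in ING4-/-. The summed level of the 9 granulocyte and monocyte markers was 426 to 682 CPM (counts scaled to the TMM-normalized library size) in WT and 1197 to 1425 in ING4-/-, with Elane at 0 in ING4-/- MPPs; that of the 5 megakaryocyte markers was 174 to 327 in WT and 271 to 1056 in ING4-/-, with Ppbp and Gp1bb at 0 in WT LT-HSCs and Gp1bb at 0 in WT MPPs. Erythroid markers summed to 40.8 to 60.8 CPM in WT and 88.3 to 197 in ING4-/-, where Alas2 and Ermap were at 0 in every library. T and NK cell markers (68.9 to 75.8 in WT, 34.6 to 54.6 in ING4-/-, with Cd3e at 0 there) and stromal markers (148 to 164 in WT, 51.7 to 73.6 in ING4-/-, with Lepr at 0 there) were lower in ING4-/-. The part of these markers in the results that follow was not tested.

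The first comparison asked whether glycolytic transcripts differed between ING4-/- and WT HSPCs. Of the 10 enzymes, 6 were higher in ING4-/- by the call rule (adjusted p under 0.05 and a log2 fold change over 1), namely Gpi1, Aldoa, Gapdh, Pgk1, Eno1 and Ldha, and 0 were lower. Across all 31001 genes tested, the same rule called 7.98% higher and 56.7% lower, and among the 9673 genes that reached 10 counts in each library, to which all 10 enzymes belong, it called 24.3% higher. The median log2 fold change was 1.06 over the 10 enzymes, -6.85 over all genes tested and 0.52 over those well-counted genes. Pkm passed the p threshold but not the fold minimum, so 7 of the 10 were higher by the p threshold alone, against 9.6% of all genes tested, and the transcripts of the ATP-spending steps, Hk1, Hk2 and Pfkl, passed neither.

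**Figure D1:**
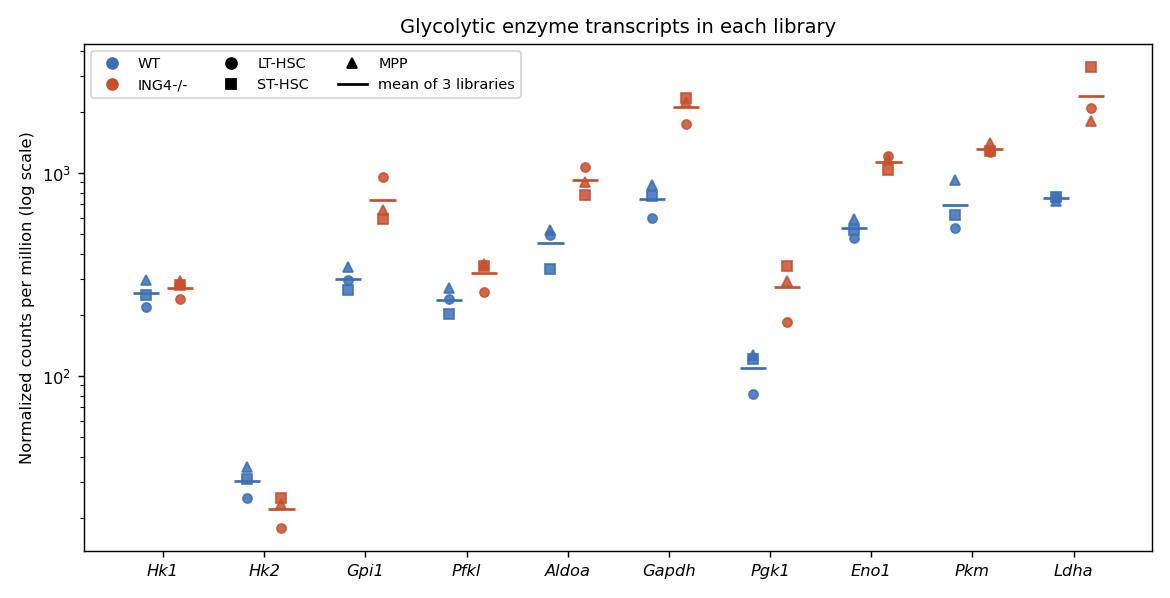
Normalized CPM (TMM scaling, log axis) of the 10 enzymes in each of the 6 libraries; blue points are WT, red points ING4-/-, the shape marks the population and the bar is the mean of 3 libraries. For Gpi1, Aldoa, Gapdh, Pgk1, Eno1, Pkm and Ldha all 3 ING4-/- points lie above all 3 WT points, whereas for Hk1, Hk2 and Pfkl the points overlap.

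The hexokinases commit glucose to the cell by phosphorylating it. Hk1 (ENSMUSG00000037012; mm10 chromosome 10, 62268855–62379908, minus strand), the broadly expressed isozyme, stood at 219, 250 and 296 CPM in WT and at 238, 280 and 294 CPM in ING4-/-, and the groups overlapped almost completely (log2 fold change 0.09, SE 0.19; edgeR adjusted p = 0.719). Hk2 (ENSMUSG00000000628; chromosome 6, 82725025–82774454, minus strand), the inducible isozyme, was the lowest of the 10, at 25.0, 31.2 and 35.4 CPM in WT and 17.9, 25.1 and 23.5 CPM in ING4-/-. Its log2 fold change was -0.46 (SE 0.39; edgeR adjusted p = 0.340), with ING4-/- ST-HSCs level with WT LT-HSCs. Pfkl (ENSMUSG00000020277; chromosome 10, 77986947–78010083, minus strand), the liver-type phosphofructokinase subunit of the committed step, was at 238, 202 and 270 CPM in WT and 260, 349 and 356 CPM in ING4-/-, a log2 fold change of 0.44 (SE 0.20; edgeR adjusted p = 0.0938). The ING4-/- LT-HSC value of Pfkl fell inside the WT range.

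Gpi1 (ENSMUSG00000036427; chromosome 7, 34201330–34230336, minus strand) encodes the isomerase that turns glucose 6-phosphate into fructose 6-phosphate. Its levels were 296, 266 and 343 CPM in WT and 959, 592 and 656 CPM in ING4-/-, so that the groups did not overlap and the LT-HSC library was the highest of the ING4-/- set (log2 fold change 1.29, SE 0.23; edgeR adjusted p = 0.00163). Aldoa (ENSMUSG00000030695; chromosome 7, 126795234–126809108, minus strand) encodes the aldolase that cuts the 6-carbon sugar. It was at 495, 337 and 525 CPM in WT and 1073, 782 and 906 CPM in ING4-/-, with ST-HSCs the lowest population in both genotypes (log2 fold change 1.03, SE 0.22; edgeR adjusted p = 0.00409).

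Gapdh (ENSMUSG00000057666; chromosome 6, 125161715–125166467, minus strand), whose product performs the oxidation step and reduces NAD+, was at 597, 769 and 872 CPM in WT and 1742, 2347 and 2226 CPM in ING4-/-. The 2 groups were far apart, with a log2 fold change of 1.5 (SE 0.19; edgeR adjusted p = 6.6e-04). Gapdh lies 112450 bases from the annotated end of Ing4, on the same chromosome, and Tpi1 and Eno2 lie 225464 and 270087 bases from Ing4; whether that shared interval bears on their levels was not tested. Pgk1 (ENSMUSG00000062070; chromosome X, 106187100–106203699, plus strand), the kinase of the first ATP-yielding step, was at 81.6, 121 and 127 CPM in WT and 185, 346 and 293 CPM in ING4-/-. LT-HSCs were the lowest population for Pgk1 in both genotypes, and the genotypes did not overlap (log2 fold change 1.33, SE 0.30; edgeR adjusted p = 0.00547). Eno1 (ENSMUSG00000063524; chromosome 4, 150236721–150248879, plus strand), the widely expressed enolase, was at 479, 524 and 594 CPM in WT and 1208, 1032 and 1164 CPM in ING4-/- (log2 fold change 1.09, SE 0.15; edgeR adjusted p = 6.6e-04). Pkm (ENSMUSG00000032294; chromosome 9, 59656368–59679375, plus strand), which encodes the M-type pyruvate kinases, was at 533, 623 and 920 CPM in WT and 1263, 1284 and 1405 CPM in ING4-/-. Although the groups did not overlap, its log2 fold change of 0.93 (SE 0.22; edgeR adjusted p = 0.00654) stayed under the fold minimum.

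Ldha (ENSMUSG00000063229; chromosome 7, 46841475–46855627, plus strand), the muscle-type lactate dehydrogenase subunit, had the highest log2 fold change of the 10. The WT libraries were nearly level at 760, 758 and 729 CPM, while the ING4-/- libraries spread over 2087, 3320 and 1803 CPM, with ST-HSCs at the top. The log2 fold change was 1.68 (SE 0.24; edgeR adjusted p = 7.1e-04).

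In all, the CPM ranges of the genotypes did not overlap for 7 of the 10 enzymes, all higher in ING4-/-, against 12% of all genes tested and 35.9% of the well-counted genes. Taken population by population, 26 of the 30 log2 ratios of ING4-/- to WT were above 0; the 4 below 0 were the 3 of Hk2 (-0.48, -0.31 and -0.59) and that of Hk1 in MPPs. Ldha differed most in ST-HSCs (2.13, against 1.46 in LT-HSCs and 1.31 in MPPs), and Gpi1 most in LT-HSCs (1.70, against 1.16 and 0.94), each from 1 library a side and with no test.

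The size of the genotype difference depended on how the libraries were scaled and filtered. DESeq2 size factors moved the median over all genes to -7.17 and called 2 enzymes (Gapdh 1.14 and Ldha 1.31), beside 1342 of all 31001 genes called higher. Upper-quartile scaling moved it to -6.35 and called 8, beside 4556 of 31001. With a filter of 10 counts in every library, the median over all genes was 0.02 and 8.3% of genes were called higher. Under that filter 1 enzyme was called (Ldha 1.17), and Gapdh stood at 0.99. After the receptor-gene background was subtracted from every library, 0 enzymes passed both criteria in edgeR, beside 1110 of 19656 genes called higher. By the p threshold alone Gapdh (0.69, edgeR adjusted p = 0.0111) and Ldha (0.86, edgeR adjusted p = 0.0145) were still higher. Hk1 was lower by that threshold (-0.62, edgeR adjusted p = 0.0199).

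**Figure D2:**
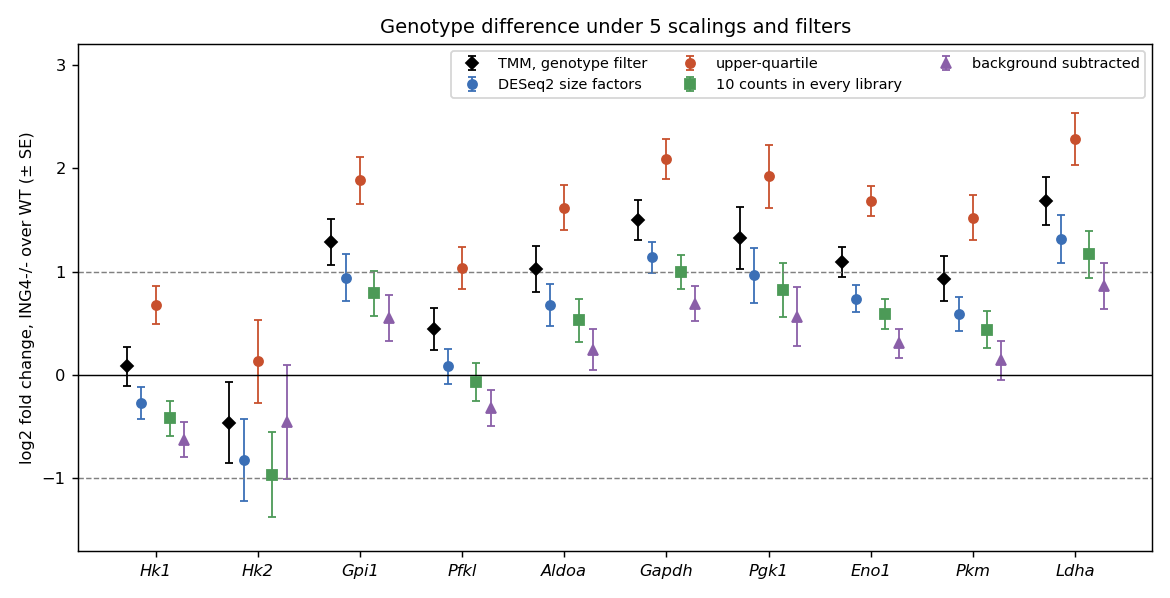
Log2 fold change of ING4-/- over WT (vertical axis, bars ± SE) for the 10 enzymes under the TMM scaling of the text, DESeq2 size factors, upper-quartile scaling, a minimum of 10 counts in every library, and subtraction of the receptor-gene background; dashed lines mark the fold minimum of 1 in either direction. Gpi1, Aldoa, Gapdh, Pgk1, Eno1, Pkm and Ldha lie above 0 under all 5, and Hk1, Hk2 and Pfkl fall on both sides of 0.

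Ratios within a library do not depend on the scaling between libraries. Counts per kb of exonic sequence were therefore summed over the 10 enzymes and each was expressed as its percent of that sum. Hk1 made up 2.96%, 3.25% and 3.22% of the sum in WT and 1.31%, 1.27% and 1.58% in ING4-/-. Hk2 accounted for 0.482%, 0.580% and 0.551% in WT, or 0.213%, 0.315% and 0.391% with the background subtracted, and 0.140%, 0.162% and 0.181% in ING4-/-. Pfkl accounted for 6.24%, 5.09% and 5.70% in WT and 2.77%, 3.06% and 3.72% in ING4-/-. These 3 were the ones whose shares did not overlap between genotypes, and all 3 were smaller in ING4-/-, also with the background subtracted. Their joint share, a grouping made after the values were seen and so not tested, was 9.36% ± 0.398 (SD, n = 3) in WT and 4.73% ± 0.670 (SD, n = 3) in ING4-/-. With the background subtracted it was 8.85% in WT and 4.73% in ING4-/-. Hk1, Hk2 and Pfkl also had the longest protein-coding transcripts of the 10 (4278, 5513 and 3730 bases, with Gpi1 next at 2884). Such shares keep any genotype difference that depends on length. With 10 counts in every library and a length trend removed, the log2 fold change was 0.35 for Hk1, -0.66 for Hk2 and -0.10 for Pfkl. It was 0.34 for Aldoa under that setting. The part of length in the shares was not tested. The other 7 shares overlapped between the genotypes: Ldha, the greatest, took 26.5%, 25.4% and 20.4% in WT and 29.5%, 38.7% and 25.1% in ING4-/-, and Gapdh took 16.6%, 20.6% and 19.6% in WT and 19.7%, 21.9% and 24.8% in ING4-/-.

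**Figure D3:**
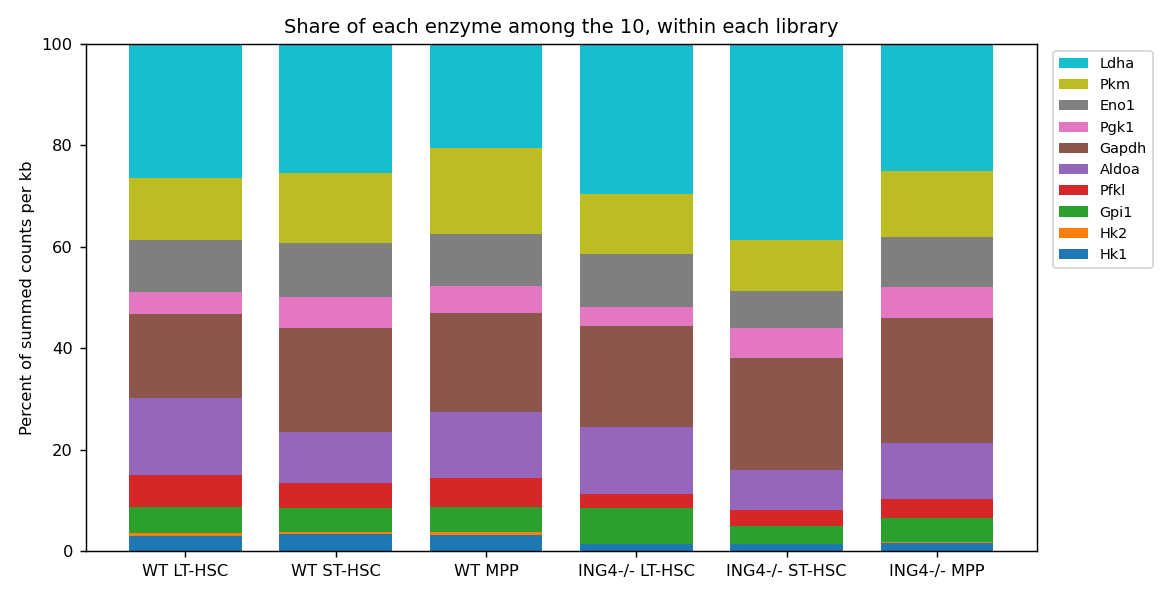
Stacked bars of the percent of the summed counts per kb that each of the 10 enzymes took within each library. The bands of Hk1, Hk2 and Pfkl are thinner in all 3 ING4-/- libraries than in all 3 WT libraries, and the Ldha band is widest in ING4-/- ST-HSCs.

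The 10 enzymes together took 0.451%, 0.448% and 0.513% of all counts in WT and 0.794%, 0.866% and 0.790% in ING4-/-. Every ING4-/- library was above every WT library, and the ratio of the means was 1.74, or 1.37 after background subtraction. An exact permutation test gave a two-sided p = 0.1, the smallest that 3 libraries against 3 can give. That test does not use the pairing by population; an exact sign-flip permutation over the 3 within-population differences, added after seeing the data, gave p = 0.25, again the smallest it can give.

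Levels between enzymes were compared as CPM per kb of exonic length. In WT the order was Ldha (226 ± 5.26, SD, n = 3), Gapdh (180 ± 33.6), Pkm (138 ± 40.5), Aldoa (120 ± 26.9), Eno1 (99 ± 10.8), Pfkl (53.8 ± 7.74), Pgk1 (48.9 ± 10.9), Gpi1 (46.7 ± 6.06), Hk1 (29.9 ± 4.54) and Hk2 (5.12 ± 0.882). Gapdh overlapped Pkm, Pkm overlapped Aldoa and Aldoa overlapped Eno1. Pfkl overlapped Pgk1 and Pgk1 overlapped Gpi1, so all those neighbours could not be ranked. In ING4-/- the order was Ldha (726 ± 244), Gapdh (509 ± 77.4), Pkm (263 ± 15.4), Aldoa (245 ± 38.8), Eno1 (211 ± 17), Pgk1 (123 ± 36.6), Gpi1 (114 ± 30.4), Pfkl (73.1 ± 12.1), Hk1 (31.7 ± 3.40) and Hk2 (3.71 ± 0.638). Here Ldha overlapped Gapdh, Pkm overlapped Aldoa, Aldoa overlapped Eno1 and Pgk1 overlapped Gpi1, so these neighbours were not ranked either. By mean, Pfkl came before Pgk1 and Gpi1 in WT, where these were not ranked. It came after both in ING4-/-, where its range no longer met theirs. The place of Pfkl against Gpi1 in WT depended on the length used. Per kb of the longest protein-coding transcript, WT Gpi1 (mean 104.6 CPM) stood above WT Pfkl (63.38 CPM) with no overlap, as in ING4-/-. By that length Pfkl still overlapped Pgk1 in WT and lay below it without overlap in ING4-/-. When the length of the longest protein-coding transcript replaced the exonic length, an alternative chosen after seeing the data, Gapdh came before Ldha in both genotypes and Hk2 was still the lowest.

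The second comparison took the populations, with genotype as a term. Fold changes of the 10 enzymes ranged from -0.65 to 0.18 on the log2 scale for LT-HSCs against MPPs, from -0.43 to 0.48 for ST-HSCs against MPPs and from -0.74 to 0.50 for LT-HSCs against ST-HSCs. In edgeR 0 of the 31001 genes (0%) passed the call rule in any of these contrasts, although 561 (1.81%), 187 (0.603%) and 616 (1.99%) had an unadjusted p under 0.05. The DESeq2 test called 308 genes for LT-HSCs against MPPs (173 higher and 135 lower), 0 for ST-HSCs against MPPs and 176 for LT-HSCs against ST-HSCs (103 higher and 73 lower), with 0 of the 10 enzymes among them.

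Pgk1, Gapdh and Aldoa were the enzymes with an unadjusted p under 0.05 in a population contrast. Pgk1 was lower in LT-HSCs than in ST-HSCs by a log2 difference of -0.74 (SE 0.21), and the difference was -0.57 in WT and -0.90 in ING4-/-. Against MPPs the Pgk1 difference was -0.65 (SE 0.21), with -0.63 in WT and -0.67 in ING4-/-, so LT-HSCs were the lowest in both genotypes. ST-HSCs stood below MPPs in WT (-0.066) and above them in ING4-/- (0.24). Gapdh differed by -0.40 (SE 0.14) between LT-HSCs and ST-HSCs and by -0.45 (SE 0.14) between LT-HSCs and MPPs. Aldoa went the other way, with LT-HSCs 0.50 (SE 0.18) above ST-HSCs, 0.56 in WT and 0.46 in ING4-/-. The edgeR adjusted p of each of these 5 differences was 1, so none passed.

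Several steps can be served by more than 1 isozyme, and the ratio of isozymes within a library was compared between genotypes in 8 pairs. The Hk2 share of Hk1 plus Hk2 (counts per kb) was 14%, 15.2% and 14.6% in WT and 9.68%, 11.4% and 10.3% in ING4-/-, a difference of -0.55 in the mean log2 ratio with no overlap (two-sided exact permutation p = 0.1, adjusted p = 0.4 over 8 pairs). After background subtraction the difference was 0.22, the opposite sign, and Hk2 was the enzyme with the largest background share in WT. Eno2, the neuronal enolase, had 185, 83 and 104 counts in WT, close to what the background density would give (301 in all over the 3 WT libraries, against 372 observed), and 0 in each ING4-/- library. With 3 counts set as the limit in each of those libraries, the difference in the mean log2 ratio of Eno2 to Eno1 was -8.12 or further below 0 (two-sided exact permutation p = 0.1, adjusted p = 0.4). That limit holds for the counts as they stand. After background subtraction, with 3 counts again in place of lower values, the difference was -5.29. With libraries paired by population, the exact sign-flip permutation p of the Hk2 and Eno2 ratios was 0.25, the smallest possible with 3 pairs. Ratios of Hk3, Pfkp, Pfkm, Aldoc, Eno3 and Ldhb to their main isozyme overlapped between genotypes, with adjusted p of 0.8 to 1. The hexokinase Hk3, of myeloid cells, had 190, 156 and 507 counts in WT and 253, 772 and 3331 in ING4-/-, highest in MPPs of both genotypes. Pfkp, the platelet-type phosphofructokinase, made up 14.4%, 21% and 18.6% of Pfkp plus Pfkl in WT and 29.2%, 18.9% and 10.8% in ING4-/-, so its order over the populations differed between genotypes. Pfkm, the muscle type, had 296, 409 and 880 counts in WT and 2543, 3797 and 1596 in ING4-/-. Aldoc had 575, 251 and 345 counts in WT and 1699, 1176 and 3323 in ING4-/-, and Eno3, the muscle enolase, had 179, 51 and 122 in WT and 28, 692 and 102 in ING4-/-. Pklr, the pyruvate kinase of liver and red cells, was near absent, with 16, 8 and 10 counts in WT and 0 in ING4-/-, and was not tested as a ratio. Ldhb, the heart-type lactate dehydrogenase subunit, was itself called higher in ING4-/- (1.36, SE 0.23; edgeR adjusted p = 0.00136), and its share of Ldha plus Ldhb was 19.7%, 22.2% and 29.1% in WT and 21%, 16.3% and 24.9% in ING4-/-.

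The remaining enzymes of the chain and its surroundings were taken from lists of transporters, branch enzymes and regulators. Of 63 such genes tested, 12 were called higher and 10 lower; 9 of the 10 lower genes had at most 3 counts in every ING4-/- library. Among the 43 that reached 10 counts in each library, 12 (27.9%) were called higher, close to the 24.3% of all such genes, and in the fit restricted to such genes 3 (6.98%), beside 8.3% of all. The 10 higher calls named here outside the list of enzymes were Tpi1, Ldhb, G6pc3, Pgls, Slc16a1, Taldo1, Bsg, Pdk1, Pdk3 and Pdhb. They came to 6 with DESeq2 size factors and 3 with that restriction. With that restriction and the length trend removed, 1 was left (Pdk1), and Ldhb stood at 0.18, Tpi1 at 0.13 and Bsg at 0.28. With background subtracted 2 were left (G6pc3 and Slc16a1), and with background subtracted and 10 counts in every library 0. Without 1 library Tpi1 (WT LT-HSC left out, 0.87), Taldo1 (ING4-/- MPP left out; edgeR adjusted p = 0.0566) and Pdk1 (either ST-HSC library left out, 0.89 and 0.99) lost theirs. Tpi1, the triosephosphate isomerase, was at 248, 336 and 356 CPM in WT and 584, 702 and 673 CPM in ING4-/- (log2 fold change 1.06, SE 0.19; edgeR adjusted p = 0.00174). Pgam1, the phosphoglycerate mutase, was at 34.7, 51.1 and 73.2 CPM in WT and 73.3, 80.3 and 191 CPM in ING4-/-, with a log2 fold change of 1.12 that did not pass (SE 0.47; edgeR adjusted p = 0.0720), although it passed with population as a block (1.04; edgeR adjusted p = 0.0369) and without the ING4-/- LT-HSC library (1.39; edgeR adjusted p = 0.0296). Its ING4-/- LT-HSC value was level with that of WT MPPs.

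The 5 highest fold changes outside the list of 10 belonged to enzymes of neighbouring routes and to lactate export. They were G6pc3 (1.71), a glucose 6-phosphatase; Pgls (1.64) and Taldo1 (1.45) of the pentose phosphate branch; Slc16a1 (1.58), the lactate transporter MCT1; and Bsg (1.43), which encodes basigin, the chaperone of that transporter. The edgeR adjusted p of these ranged from 6.6e-04 for Bsg to 0.0217 for Taldo1. Slc16a1 was at 40.3, 40.8 and 46.1 CPM in WT and 99.5, 182 and 100.3 CPM in ING4-/-, so that, as for Ldha, ST-HSCs were the highest of the ING4-/- libraries and the WT populations were close together. The 5 lowest were Eno2, Fbp2, Hkdc1, Mlxipl and Ldhc, with 0 counts in all 3 ING4-/- libraries. With 3 counts in each ING4-/- library as the limit, they were at least 138-fold (Eno2), 137-fold (Fbp2), 72.8-fold (Hkdc1), 56.1-fold (Mlxipl) and 55.3-fold (Ldhc) lower. Their WT totals of 372, 370, 196, 151 and 149 counts stood beside background totals of 301, 84.7, 328, 354 and 101, so Fbp2 was the one well above the background density.

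Entry of glucose and the exit of pyruvate to the mitochondria gave mixed results. The transporters Slc2a1 (GLUT1; 0.50, SE 0.38; edgeR adjusted p = 0.289) and Slc2a3 (GLUT3; 0.13, SE 0.27; edgeR adjusted p = 0.699) did not pass. Of the pyruvate dehydrogenase kinases, which restrain pyruvate oxidation, Pdk1 (1.06, edgeR adjusted p = 0.00467) and Pdk3 (1.33, edgeR adjusted p = 0.00418) were called higher in ING4-/-. So was Pdhb, a subunit of the dehydrogenase complex that these kinases inhibit (1.24, edgeR adjusted p = 0.00300), named after its values were seen as the remaining higher call of that list. Pdk2 overlapped between genotypes, with 172, 165 and 465 counts in WT and 358, 1564 and 1612 in ING4-/-. Pdk4 was called lower, with 170, 157 and 94 counts in WT and 4, 0 and 0 in ING4-/-. Background at the receptor-gene density would make up 46.8%, 51.3% and 68.4% of those WT Pdk4 counts. Hif1a (0.67, SE 0.29; edgeR adjusted p = 0.0741) did not pass, and Myc (0.87, SE 0.19; edgeR adjusted p = 0.00463) passed the p threshold without reaching the fold minimum. 

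**Figure D4:**
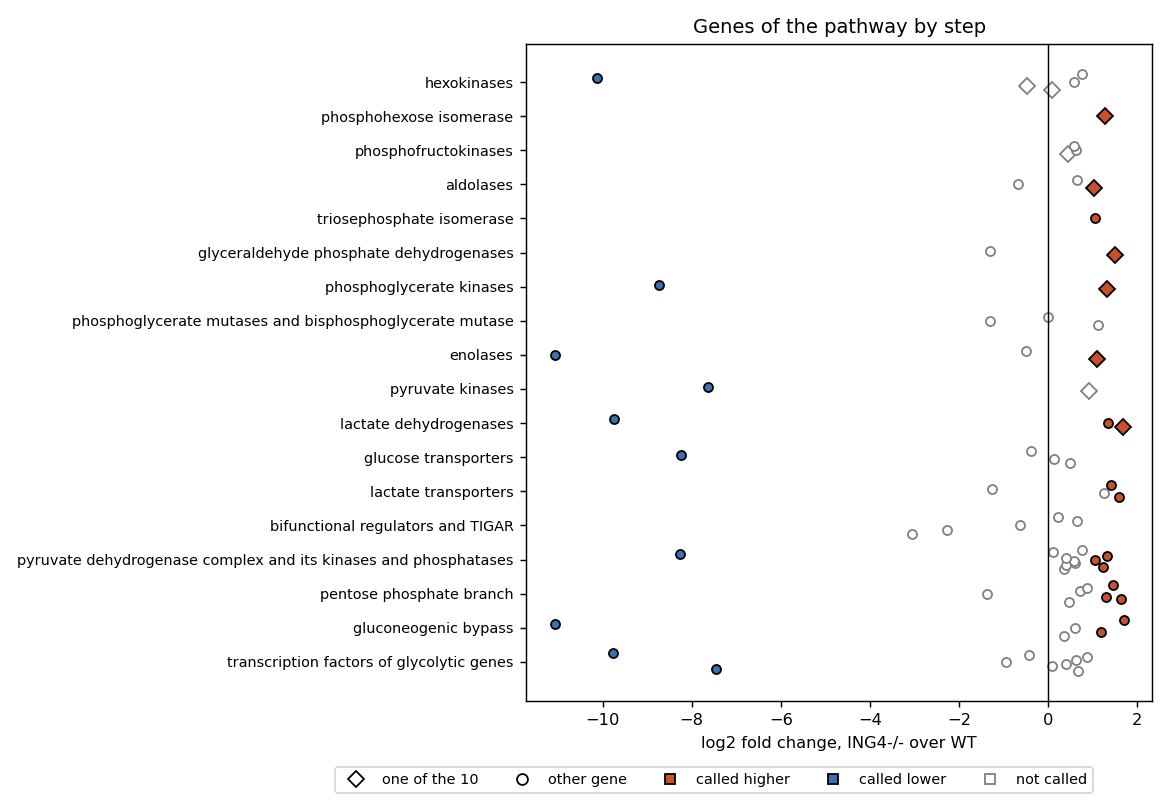
Log2 fold change of ING4-/- over WT (horizontal axis) for each tested gene of the pathway lists, 1 row per step; diamonds are the 10 enzymes, circles the other genes, red is called higher and blue called lower. The called-higher genes lie between 1 and 2, and the called-lower genes lie beyond -7 with few or 0 counts in ING4-/-.

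Processed pseudogenes, intronless copies of a messenger RNA, can share reads with their parent gene. By sequence, 77 annotated pseudogenes matched a member at 95% identity or more, of which 71 matched Gapdh, 2 Eno1, 2 Pgk1, 1 Gpi1 and 1 Pkm; Hk1, Hk2, Pfkl, Aldoa and Ldha had none. The copies differ widely in how many bases separate them from Gapdh, as a close and a more diverged copy, picked after their values were seen, illustrate. The 100-base stretch covers positions 335 to 434 of the 1002-base Gapdh coding sequence, counted from the start codon (GENCODE, GRCm38, chr6:125162928-125163027, minus strand, within a coding exon); capitals mark the bases at which a copy differs from Gapdh.
Gapdh: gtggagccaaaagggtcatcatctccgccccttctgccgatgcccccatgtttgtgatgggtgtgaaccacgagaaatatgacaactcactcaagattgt
Gm5559: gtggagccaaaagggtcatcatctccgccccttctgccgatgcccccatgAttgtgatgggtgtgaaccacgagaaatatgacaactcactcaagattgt
Gm5863: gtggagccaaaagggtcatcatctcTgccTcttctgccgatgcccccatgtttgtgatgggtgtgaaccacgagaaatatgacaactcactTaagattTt
Gm5559 (chr5:95861714-95862715, plus strand) differs at 1 base of the coding sequence and Gm5863 (chrX:120160710-120161717, plus strand) at 34. Gm5559 had 2, 10 and 10 counts in WT and 46, 68 and 62 in ING4-/-, while Gm5863 had 120, 93 and 105 in WT and 0, 1 and 3 in ING4-/-. Not all copies followed this pair. Of the 23 copies of 99% identity or more, 11 had more counts in ING4-/- and 12 more in WT, and of the 29 under 97%, 26 had more in WT and 1 more in ING4-/-.

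Over the 71 Gapdh copies, the reads amounted to 22.5%, 15.0% and 22.8% of the sum of Gapdh and its copies in WT and to 0.701%, 1.10% and 0.792% in ING4-/-. The 29 copies under 97% identity held 26.5, 25.8 and 47.3 counts per kb in WT, above the receptor-gene density, and 1.89, 10.6 and 4.74 in ING4-/-. The 23 copies of 99% identity or more held 9.10, 8.75 and 15.6 counts per kb in WT and 8.54, 15.4 and 13 in ING4-/-. Adding the copies to their parent genes lowered the log2 fold change of Gapdh to 1.18 and left 6 of the 10 enzymes called. Outside the rule for pseudogenes, and chosen after its values were seen, the retrogene Eno1b, 99.5% identical to Eno1, had 12, 50 and 24 counts in WT and 1621, 1421 and 1638 in ING4-/-, which is 0.264%, 1.03% and 0.396% of the Eno1 count in WT and 4.29%, 4.35% and 4.15% in ING4-/-. Reads of such close copies cannot be assigned with certainty; for Gapdh the copies of 99% identity or more held 3.72%, 2.84% and 4.08% of the Gapdh count in WT and 0.363%, 0.481% and 0.399% in ING4-/-. Exons of Pkm shared 15.3% of their bases with the same-strand gene Gm49759 and those of Gpi1 shared 11.5% with the opposite-strand gene Gm26762; how the counting treated them was not given in the sources used here.

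**Figure D5:**
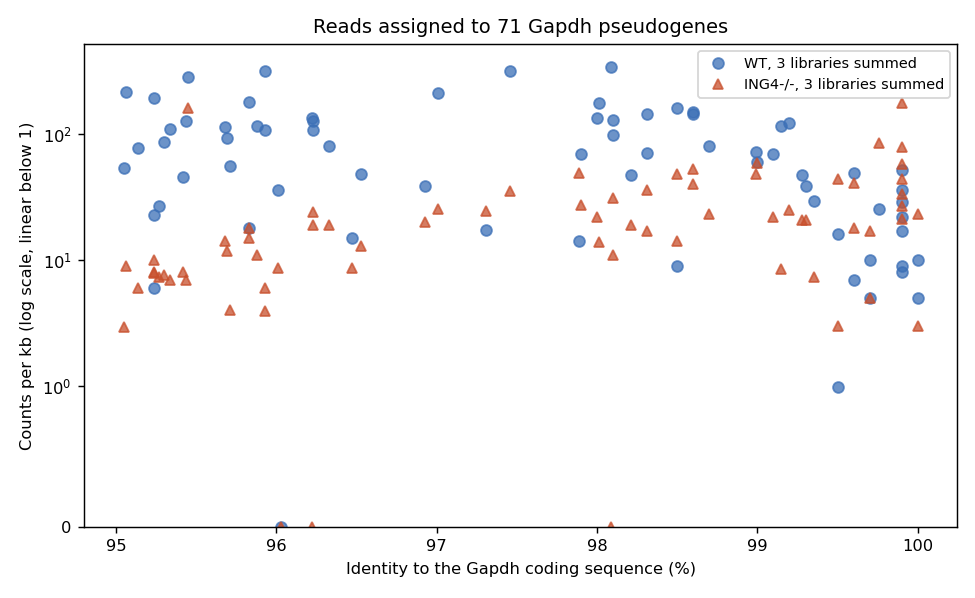
Counts per kb (log axis, linear below 1) on each of the 71 Gapdh pseudogenes against its identity to the Gapdh coding sequence in percent, with the 3 libraries of a genotype summed; circles are WT and triangles ING4-/-. WT points lie mostly above ING4-/- points below 99% identity and the groups mix above it.

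The promoters of the members were searched for letters that MYC and HIF-1 are known to bind: CACGTG (the E-box of MYC), and ACGTG and GCGTG (the core of the hypoxia response element), on both strands, in the 250 bases before each RefSeq start. ACGTG overlaps CACGTG. All 10 members had an entry, with 17 windows in all. CACGTG was present in 6.02% of all 32851 windows and in 1 of the 17, of Ldha. ACGTG was present in 16.6% of all windows and in 6 of the 17, of 5 members (Hk2, Aldoa, Pgk1, Pkm and Ldha), and GCGTG in 28.2% of all windows and in 7 of the 17, of 5 members (Hk1, Pfkl, Gapdh, Eno1 and Ldha). The windows shown are those of the enzymes with the most matches among the members called higher, Ldha, Pgk1 and Gapdh, beside Hk2, which was not; capitals mark the matches (RefSeq, GRCm38.p6). They lie at chr7:46845554-46845803 (plus strand, Ldha), chrX:106186850-106187099 (plus strand, Pgk1), chr6:125165774-125166023 (minus strand, Gapdh) and chr6:82774455-82774704 (minus strand, Hk2). The windows of Ldha and Gapdh lie inside the annotated gene but outside any annotated exon.
Ldha: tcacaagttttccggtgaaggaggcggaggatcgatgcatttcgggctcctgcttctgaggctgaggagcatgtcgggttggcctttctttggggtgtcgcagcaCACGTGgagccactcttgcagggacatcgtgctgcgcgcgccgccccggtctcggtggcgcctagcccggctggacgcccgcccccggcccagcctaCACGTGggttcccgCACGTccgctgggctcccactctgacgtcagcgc
Pgk1: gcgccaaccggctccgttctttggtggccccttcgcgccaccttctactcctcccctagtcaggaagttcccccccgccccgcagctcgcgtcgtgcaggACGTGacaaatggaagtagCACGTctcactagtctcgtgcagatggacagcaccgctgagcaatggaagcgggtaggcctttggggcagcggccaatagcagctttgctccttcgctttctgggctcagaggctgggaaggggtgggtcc
Gapdh: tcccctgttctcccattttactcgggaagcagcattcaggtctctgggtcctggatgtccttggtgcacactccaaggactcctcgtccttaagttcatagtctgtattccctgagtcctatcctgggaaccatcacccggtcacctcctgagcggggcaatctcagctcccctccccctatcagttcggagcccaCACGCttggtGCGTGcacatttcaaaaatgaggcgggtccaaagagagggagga
Hk2: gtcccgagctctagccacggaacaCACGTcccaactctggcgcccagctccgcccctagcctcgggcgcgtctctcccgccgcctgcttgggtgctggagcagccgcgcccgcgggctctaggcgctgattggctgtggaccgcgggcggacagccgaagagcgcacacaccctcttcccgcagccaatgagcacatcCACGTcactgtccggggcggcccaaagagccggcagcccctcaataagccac
Ldha held 2 CACGTG and 5 ACGTG matches, a palindromic CACGTG being counted as ACGTG on each strand. Pgk1 held 2 ACGTG matches, Gapdh 2 GCGTG matches and Hk2 2 ACGTG matches, so the letters were present in members called higher and in Hk2 alike.

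The genes whose pattern over the 6 libraries was nearest to 3 of the enzymes were sought among 9663 genes, by the mean absolute difference of log2 CPM centred on each gene's mean. Nearest to Hk2 were Prmt9 (0.0537), Pip5k1a (0.0547) and Eif4g1 (0.0676), and nearest to Gapdh were Ywhaq (0.0269), Ppp1cb (0.0313) and Actg1 (0.0512). Nearest to Ldha were Gm10925 (0.0712), Arl1 (0.0828) and Slc16a1 (0.0829), the last being the lactate transporter described above. These distances are descriptions over 6 libraries that share the genotype difference.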

How the data were processed

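RNA was isolated by the submitters from 6 sorted populations (LT-HSCs, ST-HSCs and MPPs; LSK CD48- with CD34 and CD150 gates) with a micro-column kit, and libraries were built and sequenced on an Illumina HiSeq by a commercial provider. The authors deposited raw counts per gene with exon positions and length on mm10 (per the labels); the aligner, the counter and the use of strand were not given in the sources used here. Identifiers were matched to GENCODE release 21 (49056 of 49315 found).

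Counts were analysed with edgeR 4.0.16 in R 4.3.3: TMM scaling, the filterByExpr filter with genotypes as groups, and a quasi-likelihood F test of ING4-/- against WT on all genes kept, with Benjamini-Hochberg adjustment. Calls required an adjusted p below 0.05 together with a log2 fold change beyond 1 in either direction. SE is the fold change divided by the root of F. Population contrasts used genotype and population as terms. Nothing in the sources says that libraries came from separate cohorts within a genotype, so p-values measure the spread between populations of 1 pool, which may be partly technical, and with bulk RNA fewer cells of a type and less RNA per cell cannot be told apart. Within-library ratios were tested by exact two-sided permutation (scipy 1.17.1), with 3 counts in place of lower values. Background was estimated as counts per kb on Olfr, Vmn1r and Vmn2r genes and subtracted by length as an alternative. Pseudogenes were matched with blastn 2.17.0 (at least 95% identity over 50% of their length and 100 bases).

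Alternatives were DESeq2 1.42.0 (test and size factors), upper-quartile scaling, other filters, background subtraction, pseudogene reads added, a length trend removed, the population block and leaving out libraries. Deviations from the genotype means correlated within each population (r = 0.143, 0.110 and 0.121 for LT-HSCs, ST-HSCs and MPPs over 9673 genes), so populations pair the libraries. Counts were simulated with 100 genes changed by 1.5 (log2) and another 100 by 2.5. Among 35071 genes the genotype test found 95 of those changed by 1.5 and made 10 false calls. For LT-HSCs against MPPs it found 72 of 100 among 35120, with 14 false calls. The simulation gave all libraries the same mean proportions, with no WT background, and raised as many genes as it lowered. It therefore cannot say how many false calls these data hold. Named genes were the 10 enzymes, Ing4, the remaining enzymes of the chain, their isozymes, the 5 highest and 5 lowest called genes of the pathway lists with 10 counts throughout 1 genotype, and chosen transporters, kinases and regulators. The members and lists were chosen with earlier results of these data known. Counting error only is covered by the limits of 3 counts.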

Additional observations from a re-analysis of the deposited data

Results flagged for a closer look

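Hk1 was the enzyme whose log2 ratio of ING4-/- to WT had a different sign between populations: 0.12 in LT-HSCs and 0.16 in ST-HSCs against -0.011 in MPPs. Each ratio rests on 1 library a side, and the difference between populations was not tested.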

How the results depend on the processing

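The count of 6 enzymes called higher was 2 with DESeq2 size factors, 2 with the DESeq2 test, 1 with at least 10 counts in every library, 1 with that filter and a length trend removed (Gpi1), 0 with background subtracted, 0 with background subtracted and 10 counts in every library (chosen after seeing the data) and 3 without both MPP libraries. It was 8 with upper-quartile scaling, 7 without a filter, 6 with the population as a replicate block, which changed no call of the 10 (of the other genes named, Pgam1 gained a call at 1.04 and Ing4 lost its call at -5.45), and 5 to 7 when 1 library was left out: Aldoa lost its call without the ING4-/- LT-HSC or the WT ST-HSC library, Eno1 without the WT LT-HSC library, and Pkm gained one without the WT MPP library. By the p threshold alone 7 enzymes were higher with TMM and with DESeq2 size factors, 9 with upper-quartile scaling, 5 in the DESeq2 test, 4 with 10 counts in every library, 2 with background subtracted and 0 with both; Hk2 was lower in the DESeq2 test, and Hk1 with background subtracted, with and without the 10-count filter. Over all genes tested, the calls higher were 2475 of 31001 with TMM, 1342 with DESeq2 size factors, 1518 in the DESeq2 test and 4556 with upper-quartile scaling. They were 803 of 9673 with 10 counts, 372 with the length trend also removed, 1110 of 19656 with background subtracted and 320 of 8072 with both. They were 2741 of 44670 without a filter, 1999 of 31001 with the block and 1625 of 31530 without both MPP libraries. The cause of these shifts was not tested beyond the settings themselves.

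The log2 fold change turned sign for Hk1 with DESeq2 size factors (-0.27), the DESeq2 test (-0.27), 10 counts in every library (-0.42), background subtracted (-0.62), both together (-0.71) and without both MPP libraries (-0.033), and ranged from -0.049 to 0.20 when 1 library was left out; for Hk2 with upper-quartile scaling (0.13); and for Pfkl with 10 counts (-0.063), the length trend removed (-0.10), background subtracted (-0.32) and both (-0.41). Outside the 10 it turned for Pgam1 (-0.014) and Myc (-0.057) with the length trend removed, for Slc2a1 with 10 counts (-0.014), background subtracted (-0.086), both (-0.20) and the length trend (-0.26), and for Slc2a3 with DESeq2 size factors (-0.21), the DESeq2 test (-0.21), 10 counts (-0.37), background subtracted (-0.54) and both (-0.62); without 1 library Slc2a3 ranged from -0.053 to 0.33. The difference in isozyme log2 ratio turned with background subtracted for Hk2 to Hk1 (0.22) and Hk3 to Hk1 (0.59), and over the fits without 1 library it ranged from -0.89 to 0.76 for Hk3 to Hk1, -0.37 to 0.52 for Pfkp to Pfkl and -0.13 to 0.65 for Pfkm to Pfkl. The population contrasts gave 0 called enzymes under all alternatives run. The exact sign-flip test over populations as a replicate block, chosen after seeing the data, gave p from 0.25 to 1 for the 8 isozyme ratios. Of 576 alternative values of the log2 fold changes of named genes, 444 kept direction and call, 98 lost the call, 10 gained one and 24 turned sign.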
